A study of Mus musculus with 6 samples.

Results

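The anaphase-promoting complex (APC/C), its activators and its first ubiquitin-conjugating enzyme were described here through 10 genes, taken by symbol from the 15982 genes of the authors' deposited table: Anapc1, Anapc2, Anapc4, Anapc5, Cdc16, Cdc23, Cdc27, Cdc20, Fzr1 and Ube2c. All 10 symbols were found, each with 1 entry. The table compares primary mouse bone marrow-derived macrophages from Bub1 cKO mice, in which the spindle checkpoint kinase gene Bub1 is deleted in myeloid cells, with the same kind of cells from Ctrl mice. In both groups the macrophages had been grown for 3 days with M-CSF at 20 ng/ml and then driven towards osteoclasts for 2 days with M-CSF at 20 ng/ml and RANKL at 50 ng/ml, and 3 libraries per genotype were listed, 6 in all. The sources used here do not state the Cre driver, the deleted exons, the alleles of the Ctrl mice, their age, or whether the 3 libraries came from separate animals. The p-values therefore reflect the spread between libraries, and this spread may be technical. Each gene has 1 value per genotype, read as TPM, transcripts scaled to a fixed total per group, so no value per library can be shown.

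The APC/C is a large ubiquitin ligase that starts anaphase and mitotic exit by marking securin, cyclins and other mitotic proteins for destruction. Anapc1, Anapc4 and Anapc5 form its scaffold platform, Cdc16, Cdc23 and Cdc27 build an arc of tetratricopeptide repeat (TPR) proteins that takes up the activators, and the cullin-like Anapc2 belongs to the catalytic core. Cdc20 activates the complex in early mitosis and is the protein that the spindle checkpoint, to which Bub1 belongs, holds back, whereas Fzr1 (also called Cdh1) takes over from late mitosis and in G1, and Ube2c is the E2 enzyme that lays down the first ubiquitins.

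None of the 10 genes passed an adjusted p under 0.05 in the authors' deposited table, where 0.181% of all genes passed. The activator Cdc20 had the statistic farthest from 0 among the 10 and the only unadjusted p under 0.05. Both activators and Ube2c had negative statistics and lower values in Bub1 cKO. The 7 core subunits were divided, with 4 positive and 3 negative statistics. The positive ones include that of Anapc1, whose group value was lower in Bub1 cKO, so that no direction can be given for it.

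Upstream sequences are shown for Cdc20 and Ube2c, the members that held both a cell cycle homology region (CHR) motif and a CCAAT box, and for the scaffold gene Anapc5, which held a CCAAT box without the CHR motif. The CHR is a promoter element of genes expressed in G2 and mitosis, and the CCAAT box is the letter pattern bound by NF-Y. Each stretch runs 5′ to 3′ on the gene's strand from base -150 to base -10 before the RefSeq transcription start (GRCm38.p6), 141 bases, with matches to TTTGAA and CCAAT, or to their reverse complements TTCAAA and ATTGG, in capitals. Cdc20 lies on the minus strand (chr4:118437353-118437493), Ube2c on the plus strand (chr2:164769779-164769919) and Anapc5 on the minus strand (chr5:122821352-122821492).
Cdc20: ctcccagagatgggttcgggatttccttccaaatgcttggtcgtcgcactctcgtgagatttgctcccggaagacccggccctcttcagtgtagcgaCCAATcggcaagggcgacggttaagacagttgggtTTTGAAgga
Ube2c: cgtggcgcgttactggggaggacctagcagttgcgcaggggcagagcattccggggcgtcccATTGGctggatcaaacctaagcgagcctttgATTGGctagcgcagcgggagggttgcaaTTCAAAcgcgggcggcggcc
Anapc5: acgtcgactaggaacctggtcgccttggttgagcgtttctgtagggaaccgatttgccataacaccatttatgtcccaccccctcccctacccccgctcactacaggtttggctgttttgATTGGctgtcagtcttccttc

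RefSeq promoters could be matched for 9 of the 10 members, all but Cdc23. In the 250 bases before the start, TTTGAA on either strand occurred in Cdc20, where it covers bases -18 to -13, and in Ube2c, where it lies on the opposite strand at bases -29 to -24. The other 7 promoters held no such match, which says only that these letters are not in this window. CCAAT on either strand occurred in 5 of the 9: Cdc20, Ube2c, Anapc5, Fzr1 and Cdc27. Ube2c held 6 such matches, 2 of them on opposite strands and sharing bases, and no CHR match shared bases with a CCAAT match. Over all 32851 promoters of the RefSeq table, 16.0% held TTTGAA, 33.8% held CCAAT and 5.55% held both. Within the 50 bases next to the start, a window chosen after the matches were seen, 2.63% of all promoters held TTTGAA. Among genes averaging 1 TPM or more, with 1 promoter each, TTTGAA was held by 10.7%, and by 1.44% within those 50 bases. It was also held by 2 of 7 promoters of other APC/C subunits. Of the inhibitors and the proliferation markers described below, 1 of 9 and 4 of 9 held it. A match is a run of letters and does not show that a factor binds there. The start of the longest annotated gene model in GENCODE lies upstream of the RefSeq start by 9 bases for Cdc20 and by 31 bases for Ube2c. Measured from the GENCODE start, the CHR match of Ube2c at bases -29 to -24 therefore lies downstream of the start.

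**Figure D1:**
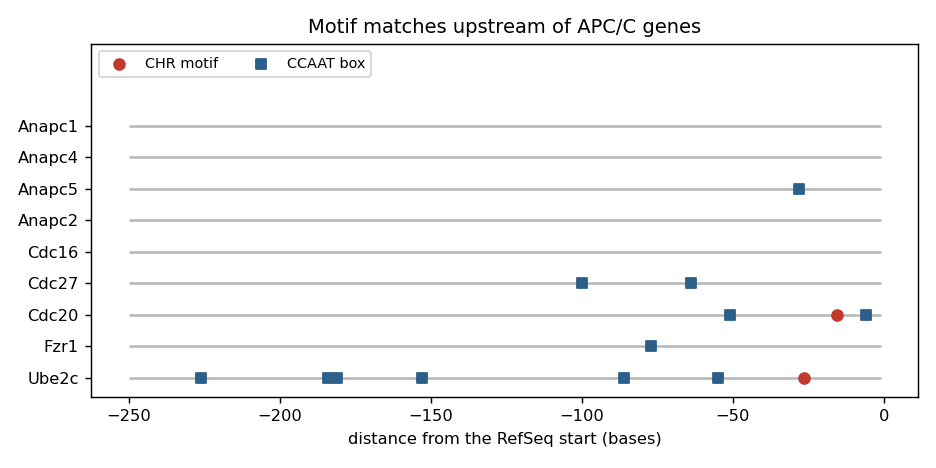
Matches to the CHR motif (circles) and the CCAAT box (squares) on either strand, by distance in bases from the RefSeq start, in the 250 bases upstream of 9 members. CHR matches appear only in Cdc20 and Ube2c among these 9, both within 50 bases of the start.

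The authors' deposited table lists Cdc20 at 21.0 TPM in Bub1 cKO, against 34.1 TPM in Ctrl. The value in Bub1 cKO was 0.616 times that in Ctrl. The deposited log2 change, which is the log2 of the ratio of the 2 values after adding 1 to each, was -0.67 (standard error 0.32, unadjusted p = 0.028, adjusted p = 0.911, all from the authors' deposited table). Among all genes, 497 had a p at or below that of Cdc20, and 4.81% of all genes had an unadjusted p under 0.05. That standard error goes with the change estimated inside the authors' test, the product of statistic and standard error, which is called the test's own change below. For Cdc20 it was -0.71, with a 95% interval from -1.34 to -0.08. The 3′ end of Cdc20 (chromosome 4, 118432901 to 118437352, GENCODE M21 on GRCm38) overlaps that of Elovl1, a fatty acid elongase gene on the opposite strand, by 53 bases. Elovl1 stood at 55.8 TPM in Bub1 cKO and 43.2 TPM in Ctrl in the authors' deposited table. Reads came from 3′ ends and whether counting used strand is not stated in those sources, so the division of reads between these genes was not tested.

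Fzr1, the later activator, stood at 9.58 TPM in Bub1 cKO, against 12.2 TPM in Ctrl, in the authors' deposited table. By the authors' deposited table its log2 change of -0.32 (standard error 0.32, adjusted p = 0.985) did not pass. For the test's own change the 95% interval, -0.94 to 0.29, includes 0. Cdc20 values were 2.19 times those of Fzr1 in Bub1 cKO and 2.80 times in Ctrl. These ratios depend on reading the values as TPM, a value per length. Multiplied by the longest coding transcript in kb, Cdc20 and Fzr1 lay closer together, at 37.6 and 29.3 in Bub1 cKO. In Ctrl the products were 61.1 and 37.2. Summed over both activators, the deposited values came to 30.5 TPM in Bub1 cKO and 46.2 TPM in Ctrl. Whether the changes of Cdc20 and Fzr1 differ from each other was not tested, since that needs values per library, and their intervals overlap.

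Ube2c had the highest value of the 10 genes, with 113 TPM in Bub1 cKO and 132 TPM in Ctrl in the authors' deposited table. The log2 change of -0.22 (standard error 0.21, adjusted p = 0.985 in the authors' deposited table) did not pass. The 95% interval of the test's own change ran from -0.62 to 0.19, that is, from 0.650 to 1.14 times the Ctrl level. Ube2c (chromosome 2, 164769898 to 164778822) overlaps the troponin gene Tnnc2 on the opposite strand by 1662 bases that include the 3′ end of Ube2c. No entry with the gene identifier of Tnnc2 was found in the authors' deposited table, and the division of reads between these genes was not tested.

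Among the scaffold genes, Anapc4 stood at 54.3 TPM in Bub1 cKO, against 41.1 TPM in Ctrl, in the authors' deposited table. The log2 change of 0.39 (standard error 0.35, adjusted p = 0.985 in the authors' deposited table) did not pass. For Anapc5 the authors' deposited table has 34.8 TPM in Bub1 cKO, against 42.1 TPM in Ctrl, and a log2 change of -0.27 (standard error 0.20). Anapc4 and Anapc5, whose proteins sit side by side in the platform, had values with a ratio of 1.56 in Bub1 cKO and 0.977 in Ctrl. Multiplied by the longest coding transcript in kb, Anapc4 lay above Anapc5 in both groups, at 209 and 96.0 in Bub1 cKO. In Ctrl the products were 158 and 116. Neither change passed the test, and the 95% intervals of the test's own changes, -0.20 to 1.18 for Anapc4 and -0.60 to 0.19 for Anapc5, overlap.

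Anapc1, the largest scaffold subunit, stood at 6.40 TPM in Bub1 cKO and 6.999 TPM in Ctrl in the authors' deposited table. Its deposited log2 change was -0.11, whereas the test's own change was 0.09 with a 95% interval from -0.73 to 0.90, so that no direction can be given. Anapc1 (chromosome 2, 128610104 to 128687391 on the minus strand) lies 778 kb from Bub1 on the same chromosome. Within 2 Mb of Bub1 the table holds 52 other genes, of which 0 passed the adjusted p and 3 had an unadjusted p under 0.05, all with negative statistics. These 3, Bcl2l11, Ckap2l and Sirpa, were named after their values were seen. Bcl2l11 has no single direction, since its group values gave a log2 change of 0.07 in the authors' deposited table while the test's own change was -0.61. Counting only genes averaging 1 TPM or more, 38 of these neighbours, the share was 7.89%, against 6.27% of all genes at that level.

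The catalytic subunit gene Anapc2 stood at 11.3 TPM in Bub1 cKO and 10.7 TPM in Ctrl in the authors' deposited table. The log2 change of Anapc2 was 0.07 (standard error 0.33, adjusted p = 0.985 in the authors' deposited table). For the test's own change the 95% interval, -0.58 to 0.72, covers values from 0.669 to 1.65 times the Ctrl level.

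In the TPR arc, Cdc16 stood at 19.0 TPM in Bub1 cKO, against 13.2 TPM in Ctrl, in the authors' deposited table. This was the largest positive log2 change of the 10 genes, 0.50, but with a standard error of 0.58 (adjusted p = 0.985 in the authors' deposited table). Cdc27, which binds the activators' C-terminal tails, had 4.64 TPM in Bub1 cKO, 5.34 TPM in Ctrl and a log2 change of -0.17 (standard error 0.35) in the authors' deposited table. Cdc23 stood at 1.12 TPM in Bub1 cKO and 1.40 TPM in Ctrl in the authors' deposited table. Its standard error of 1.04 leaves a 95% interval of the test's own change from -2.75 to 1.34, so neither a fall to 0.148 times nor a rise to 2.54 times the Ctrl level lies outside it. Genes with a mean between 1 and 2 TPM had a median standard error of 1.10. Cdc23 also overlaps Kif20a, a mitotic kinesin gene on the opposite strand, by 2327 bases that include the 3′ end of Cdc23. Kif20a stood at 7.01 TPM in Bub1 cKO and 10.4 TPM in Ctrl in the authors' deposited table. The division of reads between Cdc23 and Kif20a was not tested.

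**Figure D2:**
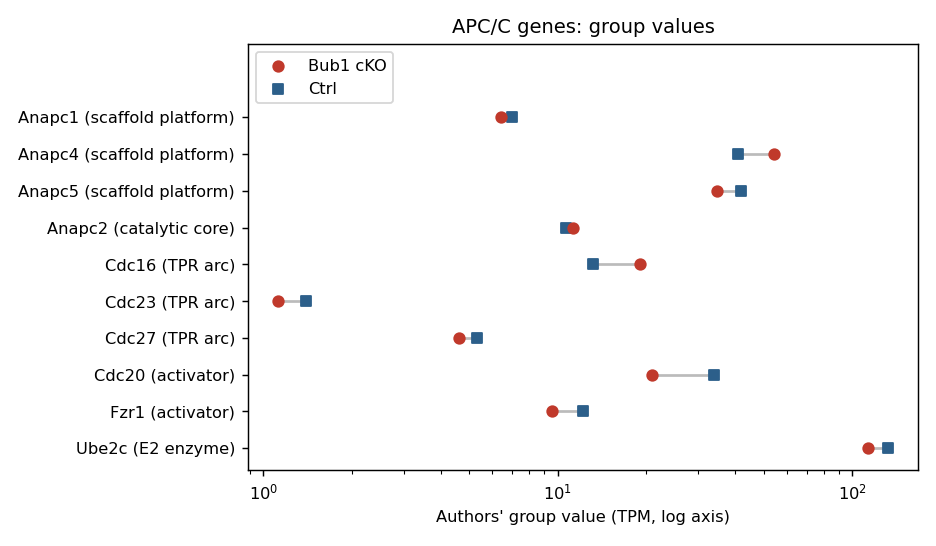
Group value of each member in TPM on a log axis, with Bub1 cKO as circles and Ctrl as squares, and the role of each gene in parentheses. The widest gap between the groups on this axis is that of Cdc20, at 21.0 TPM in Bub1 cKO and 34.1 TPM in Ctrl.

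**Figure D3:**
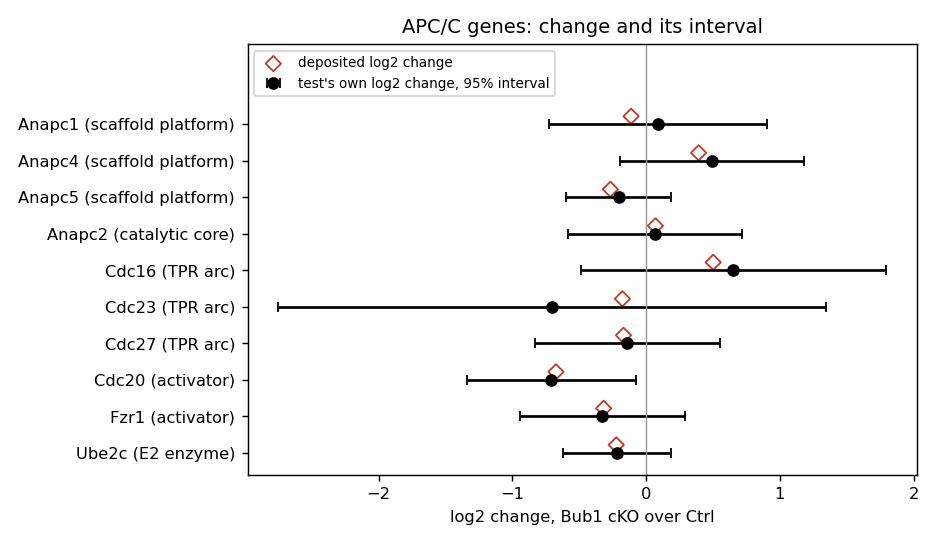
Change of each member on the log2 scale, Bub1 cKO over Ctrl. Black points with bars give the test's own change and its 95% interval, and open diamonds give the deposited log2 change. The interval of Cdc20 alone leaves out 0, before any adjustment for the number of genes, and the widest interval is that of Cdc23.

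Taken as a list, the 10 genes had 6 negative and 4 positive statistics, a share of 60% negative beside 50.1% of all genes. Counted by the deposited log2 change, 7 were negative and 3 positive, the difference being Anapc1. The median log2 change was -0.17, beside -0.01 over all genes. The summed value of the 10 genes was 275 TPM in Bub1 cKO and 299 TPM in Ctrl, a ratio of 0.920. Without Ube2c the sums were 162 TPM in Bub1 cKO and 167 TPM in Ctrl. The 7 core subunits summed to 132 TPM in Bub1 cKO and 121 TPM in Ctrl, with the scaffold at 95.4 TPM in Bub1 cKO and 90.1 TPM in Ctrl and the TPR arc at 24.8 TPM in Bub1 cKO and 19.9 TPM in Ctrl. These sums have no error, since values per library are not used here.

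The levels of subunits that assemble into the same complex were far apart. Among the 7 core genes the highest value was 48.3 times the lowest in Bub1 cKO and 30.0 times in Ctrl, with Cdc23 lowest in both. Both ratios rest on this 1 gene, at 1.12 TPM in Bub1 cKO and 1.40 TPM in Ctrl, whose 3′ end overlaps Kif20a. The next lowest core gene, Cdc27, stood at 4.64 TPM in Bub1 cKO and 5.34 TPM in Ctrl. The order was Ube2c, Anapc4, Anapc5, Cdc20, Cdc16, Anapc2, Fzr1, Anapc1, Cdc27 and Cdc23 in Bub1 cKO. In Ctrl, Anapc5 stood above Anapc4 and Fzr1 above Anapc2, and the order was otherwise the same. Whether neighbours in this order differ beyond the spread between libraries cannot be said. The values are read as TPM, a value per length, while CPM would need no such step. The values were therefore also multiplied by the length of the longest coding transcript. Anapc1, whose transcript of 8942 bases is the longest of the 10, then moved to rank 4 in both groups, while Cdc23 kept rank 10. Cdc20 moved from rank 4 to rank 6 in Bub1 cKO and to rank 5 in Ctrl. Cdc16 moved from rank 5 to rank 8 in Ctrl and kept rank 5 in Bub1 cKO. The order thus depends in part on the length step.

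The other genes of the pathway gave no call either. Of the 7 remaining APC/C subunits 0 passed the adjusted p and 0 had an unadjusted p under 0.05. Their statistics were 2 positive and 5 negative, beside 50.1% negative over all genes, and the median log2 change was -0.04. Anapc11, the RING subunit that pairs with Anapc2, stood at 75.7 TPM in Bub1 cKO, against 91.1 TPM in Ctrl, and had a log2 change of -0.26 by the authors' deposited table. The TPR subunit gene Anapc7 stood at 6.17 TPM in Bub1 cKO, against 4.36 TPM in Ctrl, and had a log2 change of 0.42 by the authors' deposited table. The other E2 enzymes gave 0 calls in 4 genes, with 3 positive statistics. Ube2d3 had the smallest p of these, with a log2 change of 0.16 (unadjusted p = 0.176), and Ube2d1 stood at 7.09 TPM in Bub1 cKO and 7.46 TPM in Ctrl in the authors' deposited table, whereas the test's own change was positive, 0.54, so that no direction can be given.

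The list of APC/C inhibitors and checkpoint regulators had 9 of 11 genes in the table, with 3 positive and 6 negative statistics and 0 calls. Over all genes 50.1% of the statistics were negative. Mad1l1, which recruits Mad2 to kinetochores, stood at 16.2 TPM in Bub1 cKO, against 8.51 TPM in Ctrl, and had a log2 change of 0.86 by the authors' deposited table (unadjusted p = 0.060). Mad2l1bp, which helps to take the checkpoint complex apart, stood at 5.92 TPM in Bub1 cKO, against 11.9 TPM in Ctrl, and had a log2 change of -0.90 by the authors' deposited table (unadjusted p = 0.123). Bub1 itself stood at 5.32 TPM in Bub1 cKO and 6.73 TPM in Ctrl in the authors' deposited table (adjusted p = 0.985), and the 95% interval of the test's own change ran from -1.15 to 0.50. Whether the 3′ tags lie inside the deleted part is not known from the sources used here, so the value does not check the labels.

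Of 27 APC/C substrate genes, 20 had a negative statistic, or 74.1% beside 50.1% of all genes, and the median log2 change was -0.23. None passed the adjusted p, and 2 had an unadjusted p under 0.05, both lower in Bub1 cKO, where 2.46% of all genes were lower at that threshold. All 27 averaged 1 TPM or more, and of the 10874 genes at that level 349 were lower at that threshold. The mitotic kinase gene Plk1 stood at 20.2 TPM in Bub1 cKO, against 29.4 TPM in Ctrl, and had a log2 change of -0.52 by the authors' deposited table (adjusted p = 0.983). The gene of cyclin B1, Ccnb1, stood at 25.1 TPM in Bub1 cKO, against 36.6 TPM in Ctrl, and had a log2 change of -0.52 by the authors' deposited table (adjusted p = 0.985). A lower value of mitotic genes was already known for this table when the lists were drawn up, so the substrate counts are not independent support. Of the 22 substrate genes with a matched promoter 5 held TTTGAA and 17 did not. The median log2 changes were -0.23 with the motif and -0.24 without it, and the median statistics were -0.579 with it and -1.02 without it. Negative statistics were found in 5 of the 5 genes with the motif and in 11 of the 17 without it. A difference between these sets was not tested.

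Of the 10 proliferation markers, 4 had a positive and 6 a negative statistic, beside 50.1% negative over all genes. Their median log2 change was -0.17, the same as that of the members at this rounding, and their median statistic was -1.02. Their values summed to 669 TPM in Bub1 cKO and 748 TPM in Ctrl. Mcm7 and Cdk1 had an unadjusted p under 0.05 with negative statistics and Mcm6 with a positive one, and 0 of 10 passed the adjusted p. Over all genes 4.81% had an unadjusted p under 0.05, and 2.46% had one and were lower in Bub1 cKO. Among genes averaging 1 TPM or more, 6.27% had one in either direction. Cdk1, the kinase that drives mitosis and phosphorylates the APC/C, stood at 85.1 TPM in Bub1 cKO and 115 TPM in Ctrl in the authors' deposited table. The replication helicase gene Mcm7 stood at 57.4 TPM in Bub1 cKO and 79.2 TPM in Ctrl, and Mcm6 at 33.3 TPM in Bub1 cKO and 23.6 TPM in Ctrl, in the authors' deposited table. In bulk RNA, fewer cells in mitosis and less RNA per mitotic cell cannot be told apart.

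**Figure D4:**
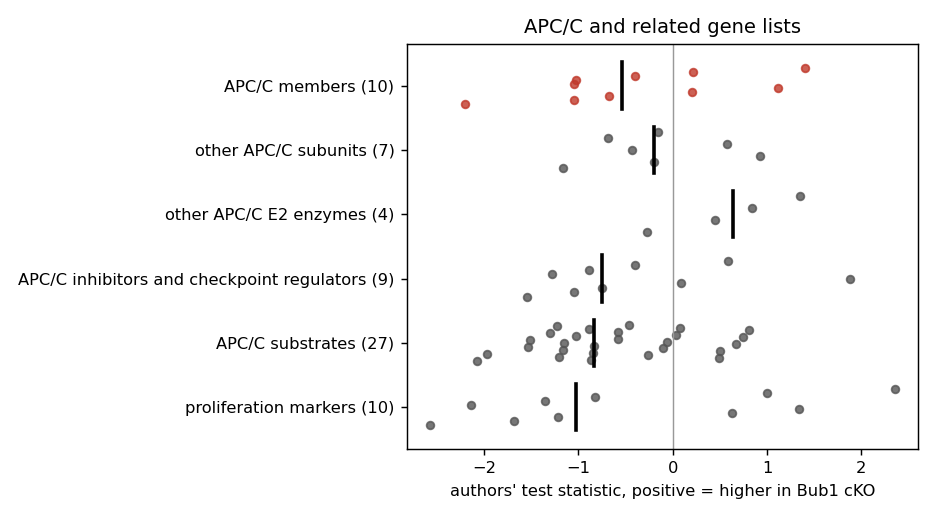
Statistic of the authors' test for each gene of 6 lists, with 1 point per gene, the number of genes in parentheses and a black bar at the median. Positive values mean higher in Bub1 cKO. The medians were -0.53 for the members, -0.20 for the other subunits and 0.64 for the other E2 enzymes. They were -0.74 for the inhibitors and checkpoint regulators, -0.84 for the substrates and -1.02 for the proliferation markers. Each list has points on both sides of 0.

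For the 10 members the deposited change and the test's own change differed by less than 1 standard error in every gene. This was not so for 6 of the 47 measured genes of the 4 other APC/C lists, all named after their values were seen: Cdc26, Anapc10, Mad2l1, Sgo1, Dbf4 and Anln. Over all genes the share was 10.7%. Cdc26, a small subunit that holds Cdc16 in shape, stood at 16.8 TPM in Bub1 cKO and 37.6 TPM in Ctrl (log2 change -1.12 in the authors' deposited table), while the test's own change was -0.35. Anapc10, the subunit that reads destruction motifs together with the activator, stood at 21.6 TPM in Bub1 cKO and 10.1 TPM in Ctrl (log2 change 1.03 in the authors' deposited table), while the test's own change was 0.33. Mad2l1, the checkpoint protein that captures Cdc20, had a log2 change of -2.43 in the authors' deposited table and a test's own change of -0.54. For these genes the ratio of the group values alone gives a larger change than the test did.

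**Figure D5:**
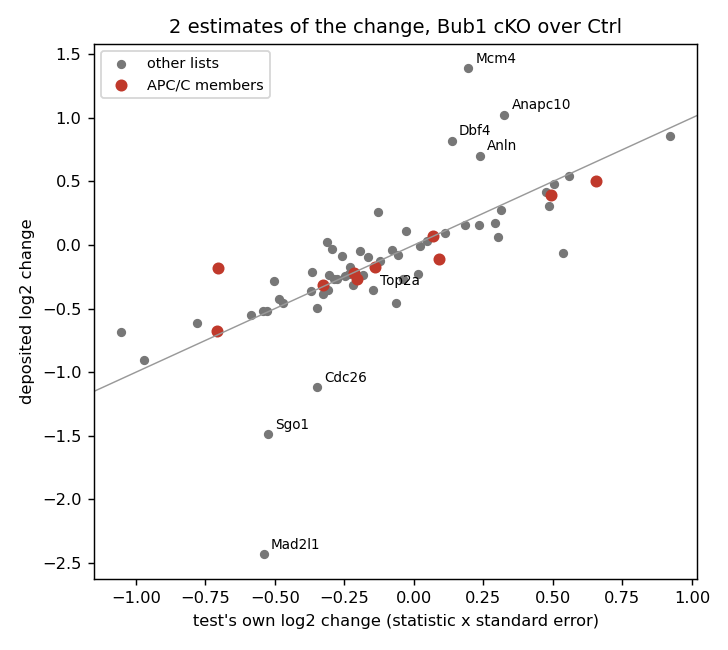
Deposited log2 change against the test's own log2 change for the members (red) and the other APC/C and proliferation lists (grey), with the line of equality. Genes that differ by more than 1 standard error are named. Of the members Cdc23 lies farthest from the line, at -0.18 and -0.70, and of all genes shown Mad2l1, at -2.43 and -0.54.

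Markers of the culture were read for the whole table. All 10 macrophage and all 10 osteoclast markers were present, with summed values of 1240 TPM in Bub1 cKO and 2629 TPM in Ctrl for macrophage genes, and of 2298 TPM in Bub1 cKO and 1987 TPM in Ctrl for osteoclast genes. Of the macrophage genes 7 of 10 had a negative statistic and Lyz2, a lysozyme gene, passed the adjusted p at 762 TPM in Bub1 cKO and 2141 TPM in Ctrl in the authors' deposited table. Whether the Lyz2 value follows macrophage content was not tested, and the Cre driver is not stated in the sources used here. The other 9 macrophage genes summed to 478 TPM in Bub1 cKO and 488 TPM in Ctrl. Cd68 alone made up 306 TPM of this in Bub1 cKO and 260 TPM in Ctrl. At an unadjusted p under 0.05, 4 of the 10 macrophage genes were lower in Bub1 cKO (Lyz2, Csf1r, Itgam and Mrc1). At that threshold 1 was higher (Cd68). It was passed in either direction by 4.81% of all genes and by 6.27% of genes averaging 1 TPM or more. Of the osteoclast genes 8 of 10 had a positive statistic and 0 passed the adjusted p, while 50.1% of all genes had a negative statistic. At an unadjusted p under 0.05, 5 of the 10 were higher in Bub1 cKO and 0 were lower, beside those shares of 4.81% and 6.27%. These were Nfatc1 (adjusted p = 0.094 in the authors' deposited table), Ocstamp, Ctsk, Acp5 and Itgb3. Erythroid markers (5 of 8 in the table) summed to 358 TPM in Bub1 cKO and 19.6 TPM in Ctrl, and Alas2 was listed at 0 in Ctrl. The globin genes Hbb-bs (adjusted p = 0.00017) and Hbb-bt (adjusted p = 0.025) were higher in Bub1 cKO and passed in the authors' deposited table. Neutrophil markers (11 of 12) summed to 240 TPM in Bub1 cKO and 104 TPM in Ctrl, with 10 positive statistics. By the deposited log2 change 9 were positive and 2 negative, Ltf and Prtn3. Ltf stood at 6.74 TPM in Bub1 cKO and 12.3 TPM in Ctrl, but its statistic was positive, 0.22. Prtn3 stood at 0.722 TPM in Bub1 cKO and 1.958 TPM in Ctrl. Elane, Camp and Retnlg were listed at 0 in Ctrl and at only 1.52, 0.508 and 0.283 TPM in Bub1 cKO. Their unadjusted p-values in the authors' test were 0.108, 0.626 and 0.807. Of the 11 neutrophil genes the chemokine receptor gene Cxcr2 passed in the authors' deposited table (adjusted p = 0.036), at 10.9 TPM in Bub1 cKO and 2.59 TPM in Ctrl. Apart from S100a8 and S100a9 the other 9 neutrophil genes summed to 32.9 TPM in Bub1 cKO and 24.3 TPM in Ctrl. The 3 lymphocyte markers in the table, of 8, were each under 1 TPM in both groups. The part of these differences in the values of the APC/C genes was not tested.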

How the data were processed

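RNA from Bub1 cKO and Ctrl macrophages was made into 3′ tag libraries from 25 ng of total RNA, per the labels' protocols. The authors deposited 1 comparison table, made with RaNA-seq per the file header (quantifier, build, annotation and test: not given in the sources used here). Without a named unit, the deposited expression values were taken to be TPM from their sums of 999954 in Bub1 cKO and 999891 in Ctrl; CPM would sum alike. The log2 change in the deposited table is that of the 2 group values with 1 added to each (tolerance 0.002, all 15982 genes), which understates low genes. The deposited statistic and standard error are scores from the authors' test, and the p-value and adjusted p are the authors' own, over all genes. Depth is unknown. Computed here with Python 3.11.15, pandas 2.3.3 and SciPy 1.17.1 were the test's own change (statistic times standard error), its normal 95% interval, counts, sums and motif matches. The Benjamini-Hochberg step used in the alternatives was tested on simulated data. Positions come from GENCODE M21 (GRCm38), where 15902 identifiers matched without version and 9 of 10 members with it. For the 16 repeated symbols the entry with the highest mean was kept. The members and the lists were chosen with earlier results of these data known. Named genes are the 10 members, Bub1, and in each pathway list those past the threshold or else the 2 with the smallest p among genes of at least 1 TPM, plus any with an unadjusted p under 0.05. No genes of like pattern were sought, as each group has 1 value.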

Additional observations from a re-analysis of the deposited data

How the results depend on the processing

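No paired analysis was possible because the table gives 1 value per genotype, and for the same reason no library could be left out. The count of 0 members called at the authors' adjusted p under 0.05 was also 0 at an adjusted p under 0.1 and after adjusting p again over genes of at least 1 or at least 5 TPM, and it was 1 (Cdc20) at an unadjusted p under 0.05. For the 5 related lists the count was 0, and 5 at an unadjusted p under 0.05. That threshold was passed by 4.81% of all genes and by 6.27% of genes averaging 1 TPM or more. The median log2 change of the members lay between -0.21 and -0.09 under pseudocounts of 0.1 and 5, the test's own change and median centring. Of the members' own log2 changes only that of Anapc1 changed sign among these settings, to 0.089 by the test's own change. The ratio of summed values was 0.971 without Ube2c and 0.954 on values multiplied by transcript length, both chosen after seeing the data. Near Bub1, 1 gene in place of 3 had an unadjusted p under 0.05 within 1 Mb, also chosen after seeing the data. The fewer genes come from the smaller window. The members' 95% intervals reached a median of 0.67 on the log2 scale to either side before any adjustment.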

Other observations

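A second cell cycle ubiquitin ligase, SCF, was read from 9 genes chosen after the values of the APC/C genes were seen. None passed the authors' adjusted p under 0.05, which 0.181% of all genes passed. Positive statistics were found in 7 of 9, and the median log2 change was 0.10. Over all genes 50.1% of the statistics were negative. The cullin gene Cul1 stood at 160 TPM in Bub1 cKO and 139 TPM in Ctrl, and the RING gene Rbx1 at 246 TPM in Bub1 cKO and 239 TPM in Ctrl, in the authors' deposited table. The E2 gene Cdc34 stood at 126 TPM in Bub1 cKO and 105 TPM in Ctrl (log2 change 0.26 in the authors' deposited table). Ccnf, which encodes the F-box protein cyclin F of G2, was the member with an unadjusted p under 0.05, at 5.26 TPM in Bub1 cKO and 9.62 TPM in Ctrl (log2 change -0.76, adjusted p = 0.902 in the authors' deposited table). That unadjusted threshold was passed by 4.81% of all genes. Cks1b, the other gene with a negative statistic, stood at 62.7 TPM in Bub1 cKO and 76.9 TPM in Ctrl (log2 change -0.29 in the authors' deposited table).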
